A study of Bos taurus with 15 samples.

Results

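The genes described here are 7 bovine genes of cholesterol metabolism: HMGCS1 (NCBI Gene 407767), IDI1 (514293), FDFT1 (281767), SQLE (526535), DHCR7 (514745), INSIG1 (511899) and SREBF2 (507102). They were taken by symbol from the table of 10832 genes left after the authors' filter on low counts, and all 7 were found there, each under 1 identifier. HMGCS1, IDI1, FDFT1, SQLE and DHCR7 encode synthesis enzymes, and INSIG1 and SREBF2 encode parts of the sterol control system. None of the 7 encodes an uptake receptor, so genes of uptake were read among the other genes of the pathway.

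The RNA came from in vitro produced bovine blastocysts, the stage with an outer trophectoderm, an inner cell mass and a forming hypoblast. Control embryos (Co) were cultured with no extracellular vesicle supplement. FeEV embryos received fresh oviductal extracellular vesicles (oEVs), membrane-bound particles from the fluid of the oviduct, and FoEV embryos received oEVs that had been frozen. Both kinds of oEVs were from the same oviducts of slaughtered postovulatory cows, divided before freezing. Each treatment had 5 libraries, each made from 1 ng of total RNA of a pool of 8 to 14 embryos. The labels give 7 days of culture, and the paper's text gives a longer culture. Pools were chosen for sequencing by RNA quality and concentration, and whether pools of different treatments shared a fertilisation run was not stated, so the spread between libraries may hold both biological and technical parts.

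Cells make cholesterol from acetyl-CoA through the mevalonate pathway, which runs from HMG-CoA through isoprenoids to squalene and then to sterols. The transcription factor encoded by SREBF2 is held in the endoplasmic reticulum with its escort SCAP when sterols are plentiful, where INSIG proteins retain the complex. When sterols are scarce it is cleaved, enters the nucleus and raises transcription of genes for cholesterol synthesis and uptake. In the embryo, cholesterol is used for the membranes of dividing cells and is needed for signalling by hedgehog proteins.

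Library totals ran from 2136713 to 4058887 gene counts (median 2779168 for Co, 3065710 for FeEV and 3781117 for FoEV), and every FoEV library was deeper than every Co library. Levels are given as CPM, the counts of a gene per fixed number of filtered counts in its library, after TMM scaling, a correction for library composition. Transcript lengths were not used, so levels are compared between libraries for 1 gene. Sums of CPM over several genes, and the part of a gene in such a sum, are not corrected for length either. The scarcest of the 7, in counts, was INSIG1, with 22 to 88 reads per library, and the most counted was HMGCS1, with 407 to 1242. All 9 trophectoderm markers and all 3 inner cell mass markers examined were among the filtered genes, as were 4 of 5 hypoblast markers. Also among them were 1 of 4 oviduct epithelium markers, 3 of 6 cumulus cell markers and 0 of 3 blood markers. The cumulus markers summed to 99.9 to 358 CPM per library, nearly all of it from the steroid synthesis genes HSD3B1 and CYP11A1, while the cumulus matrix genes PTX3, HAS2 and TNFAIP6 reached at most 4.07 CPM in any library. Because these were pools of whole embryos, fewer cells of a type and less RNA per cell cannot be told apart. The libraries FeEV replicate 1 and FeEV replicate 5 held the lowest and the highest mean level of the 7 genes, and the joint movement of the genes is given with and without them. No library passed Dixon's test as an outlier for any gene, in 21 groups of 5 libraries.

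HMGCS1 encodes the cytosolic HMG-CoA synthase at the entry of the pathway. Its levels in Co replicates 1 to 5 were 243, 159, 176, 167 and 215 CPM. In FeEV replicates 1 to 5 they were 121, 271, 218, 199 and 347 CPM, and in FoEV replicates 1 to 5 they were 252, 137, 228, 139 and 229 CPM. The FeEV libraries held both the lowest and the highest of all 15 values, and the treatments overlapped. The means were 192 ± 35.4 CPM in Co, 231 ± 84.1 CPM in FeEV and 197 ± 54.6 CPM in FoEV (SD, n = 5).

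IDI1 encodes an isopentenyl diphosphate isomerase, which supplies the building block for the longer isoprenoids. Co libraries held 35.7, 36.1, 29.4, 32.5 and 41.9 CPM of it, in replicate order. FeEV libraries held 28.0, 52.4, 46.0, 38.7 and 51.1 CPM, and FoEV libraries held 42.1, 39.9, 51.5, 26.0 and 42.8 CPM. The lowest value was in FoEV replicate 4 and the highest in FeEV replicate 2, and again no treatment was separate from another. Co averaged 35.1 ± 4.66 CPM, FeEV 43.2 ± 10.1 CPM and FoEV 40.5 ± 9.21 CPM (SD, n = 5).

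FDFT1 encodes squalene synthase, the first enzyme committed to sterols. The Co values were 79.1, 58.0, 56.4, 64.6 and 60.3 CPM. The FeEV values were 40.2, 88.0, 76.3, 67.4 and 109.8 CPM, and the FoEV values were 73.2, 46.4, 96.2, 65.1 and 69.5 CPM. FeEV replicate 1 was the lowest and FeEV replicate 5 the highest of the 15 libraries. Mean levels were 63.7 ± 9.15 CPM in Co, 76.4 ± 25.7 CPM in FeEV and 70.1 ± 17.9 CPM in FoEV (SD, n = 5).

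SQLE encodes squalene epoxidase, the oxygen-using step that follows. It stood at 75.5, 55.7, 61.3, 53.0 and 63.2 CPM in Co. It stood at 44.1, 66.8, 57.9, 67.9 and 87.7 CPM in FeEV and at 82.0, 53.7, 72.7, 46.4 and 61.3 CPM in FoEV. FeEV replicate 1 and FeEV replicate 5 were once more the lowest and the highest library. The treatment means lay close together, at 61.7 ± 8.73 CPM in Co, 64.9 ± 15.9 CPM in FeEV and 63.2 ± 14.3 CPM in FoEV (SD, n = 5).

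DHCR7 encodes the reductase that turns 7-dehydrocholesterol into cholesterol. Control libraries held 68.2, 53.3, 61.3, 63.0 and 66.9 CPM. Libraries with fresh oEVs held 53.7, 73.9, 75.7, 72.0 and 112.9 CPM, and libraries with frozen oEVs held 76.2, 51.7, 83.2, 59.8 and 97.1 CPM. In FeEV, 4 of 5 libraries were above every Co library, whereas FeEV replicate 1 was below 4 of the 5. The means were 62.5 ± 5.87 CPM in Co, 77.6 ± 21.6 CPM in FeEV and 73.6 ± 18.2 CPM in FoEV (SD, n = 5).

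INSIG1 encodes an endoplasmic reticulum protein that retains the SREBP-SCAP complex, and its own gene is a target of SREBPs. Values in Co were 14.2, 9.45, 11.9, 11.2 and 11.5 CPM. Values in FeEV were 7.15, 12.3, 15.6, 10.02 and 24.6 CPM, and values in FoEV were 13.7, 10.3, 22.9, 9.68 and 15.3 CPM. FeEV replicate 5 and FoEV replicate 3 were far above the other libraries. Co libraries averaged 11.7 ± 1.71 CPM, against 13.9 ± 6.72 CPM for FeEV and 14.4 ± 5.29 CPM for FoEV (SD, n = 5).

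SREBF2 encodes SREBP2, the transcription factor of the pathway. Its Co levels were 151, 101, 94.8, 104 and 123 CPM. Its FeEV levels were 79.6, 108, 115, 123 and 167 CPM, and its FoEV levels were 99.6, 86.3, 142, 123 and 123 CPM. FeEV replicate 5 was highest and Co replicate 1 followed, so the top of the range was shared between treatments. Means were 114.7 ± 23.0 CPM in Co, 118 ± 31.6 CPM in FeEV and 114.7 ± 21.9 CPM in FoEV (SD, n = 5).

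**Figure D1:**
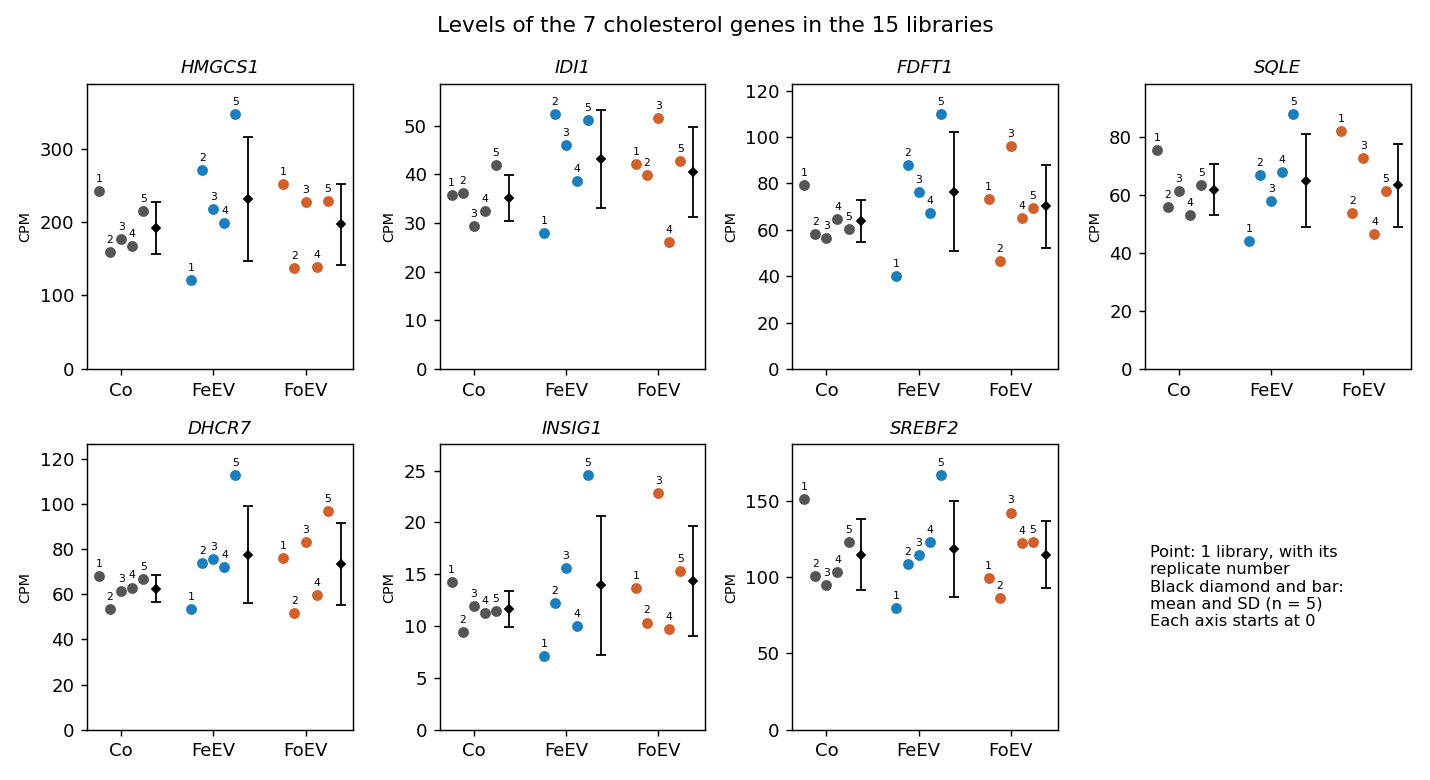
Level of each gene in CPM (vertical axis, from 0) in the 5 libraries of Co, FeEV and FoEV, with replicate numbers at the points and the mean and SD as a black diamond and bar. The treatments overlap for every gene, and FeEV replicate 5 is the highest of the 15 libraries for 6 of the 7 genes.

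The comparison of FeEV treatment vs. Co asks what fresh oEVs did to these transcripts. None of the 7 genes was called by edgeR's quasi-likelihood test at a Benjamini-Hochberg adjusted p under 0.05, in a comparison that called 0.0% of all genes. At an unadjusted p under 0.05 the count was 0 of 7, beside 4.15% of all genes, and DESeq2 likewise called 0 of 7 after adjustment. All 7 estimates were above 0, with a median log2 fold change of 0.27, against 0.0039 over all 10832 genes, of which 51.0% were above 0. The estimates of the 7 are not separate measurements, since these genes moved together from library to library. DHCR7 had the largest estimate, a log2 fold change of 0.32 ± 0.18 (SE; edgeR adjusted p = 1.0), with a 95% interval of -0.06 to 0.69. IDI1 was next at 0.30 ± 0.17 (SE), with an interval of -0.057 to 0.66. INSIG1 was at 0.28 ± 0.29, HMGCS1 at 0.27 ± 0.26, FDFT1 at 0.26 ± 0.22, SQLE at 0.07 ± 0.17 and SREBF2 at 0.05 ± 0.18 (log2 fold change ± SE), all with an edgeR adjusted p of 1.0. The intervals of all 7 genes included no change, and the widest, that of INSIG1, ran from a 0.80-fold to a 1.83-fold level.

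Results in FeEV turned on 2 libraries that lay on opposite sides. Without FeEV replicate 1, the log2 fold change rose to 0.43 for IDI1 (edgeR unadjusted p = 0.0142), 0.43 for FDFT1 (unadjusted p = 0.0238) and 0.43 for DHCR7 (unadjusted p = 0.0198). These 3 of 7 genes were under an unadjusted 0.05, but the share of all genes in that fit was not set beside them. The adjusted p was 0.999 for all 3 of them. Without FeEV replicate 5, the log2 fold change was -0.07 for SQLE, -0.048 for INSIG1 and -0.11 for SREBF2, and HMGCS1 stood at 0.07. IDI1, DHCR7 and FDFT1 stayed above 0 whichever single library was left out, with lowest values of 0.23, 0.14 and 0.09.

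FoEV treatment vs. Co addresses frozen oEVs. Here 0 of 7 genes were called at an adjusted p under 0.05 by edgeR, and 0 of 7 by DESeq2, where edgeR called 0.00923% of all genes. At an unadjusted p under 0.05 the count was also 0 of 7, although 15.1% of all genes passed that threshold. The median log2 fold change of the 7 was 0.14, against 0.015 over all genes, and without FoEV replicate 3 it was -0.0101. INSIG1 had the largest estimate, 0.30 ± 0.28 (SE), with a 95% interval of -0.28 to 0.89 (edgeR adjusted p = 0.636). It was 0.068 without FoEV replicate 3. DHCR7 was at 0.24 ± 0.18 (adjusted p = 0.547) and IDI1 at 0.21 ± 0.17 (adjusted p = 0.578). FDFT1 was at 0.14 ± 0.22, SQLE at 0.04 ± 0.17 and HMGCS1 at 0.04 ± 0.26, while the estimate for SREBF2 was -0.00011 ± 0.18 (log2 fold change ± SE). For SREBF2 the interval ran from a 0.77-fold to a 1.3-fold level, so a change of that size in either direction could not be told from none. Without FoEV replicate 4, IDI1 reached 0.33 with an edgeR unadjusted p of 0.0486 and an adjusted p of 0.419. That put 1 of 7 genes under the unadjusted threshold, and the share of all genes in that fit was not set beside it.

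FoEV treatment vs. FeEV treatment compares the oEVs with and without freezing. It called 0.0% of all genes by edgeR after adjustment and 0 of the 7, and DESeq2 called 0 of 7. At an unadjusted p under 0.05 it counted 0 of the 7, beside 8.52% of all genes. The estimate for HMGCS1 was -0.23 ± 0.26 (SE), with a 95% interval of -0.78 to 0.32 and an edgeR adjusted p of 0.808, and it was -0.035 without FeEV replicate 5 and -0.40 without FeEV replicate 1. FDFT1 was at -0.13 ± 0.22, IDI1 at -0.09 ± 0.17, DHCR7 at -0.08 ± 0.18, SREBF2 at -0.05 ± 0.18, SQLE at -0.03 ± 0.17 and INSIG1 at 0.03 ± 0.27 (log2 fold change ± SE). The 3 comparisons share their libraries in pairs, so a library that stood apart entered 2 of them.

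**Figure D2:**
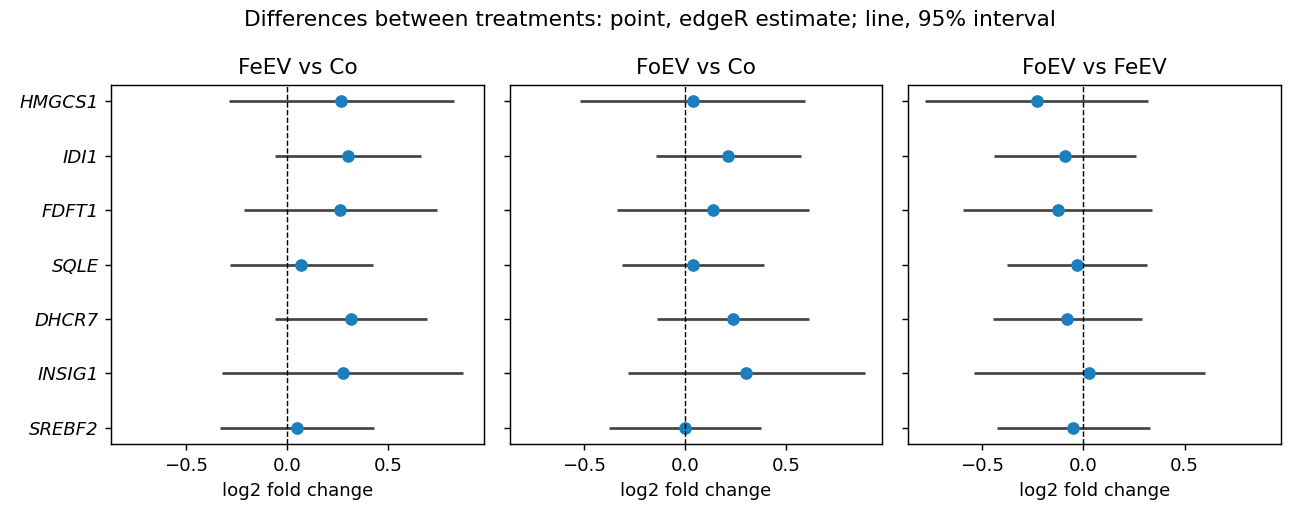
Estimated log2 fold change (horizontal axis) of the 7 genes in the 3 comparisons, with points for the edgeR estimates and lines for the 95% intervals. Every interval includes 0, drawn as a dashed line.

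Although the treatments did not separate these genes, the libraries within a treatment differed, and the 7 genes moved together in them. For each gene the treatment mean of log2 CPM was subtracted from the value in each library. In FeEV replicate 1, all 7 genes lay below their treatment means, by a mean of -0.65 on the log2 scale and over a range of -0.84 to -0.49. In FeEV replicate 5, all 7 genes lay above them, by a mean of 0.57 and over a range of 0.27 to 0.91. All 7 also lay above in FoEV replicate 3, with a mean of 0.37, and in Co replicate 1, with a mean of 0.26. In FoEV replicates 2 and 4, 6 of 7 genes were below, with means of -0.35 and -0.31. The exception in FoEV replicate 2 was IDI1, and in FoEV replicate 4 it was SREBF2. FeEV replicate 1 was the lowest of the 15 libraries for HMGCS1, SQLE, INSIG1, FDFT1 and SREBF2, and it ranked 2 from the bottom for IDI1 and 3 for DHCR7. The summed level of the 7 genes ran from 374 to 899.7 CPM in FeEV, from 473 to 667 CPM in Co and from 425 to 697 CPM in FoEV.

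**Figure D3:**
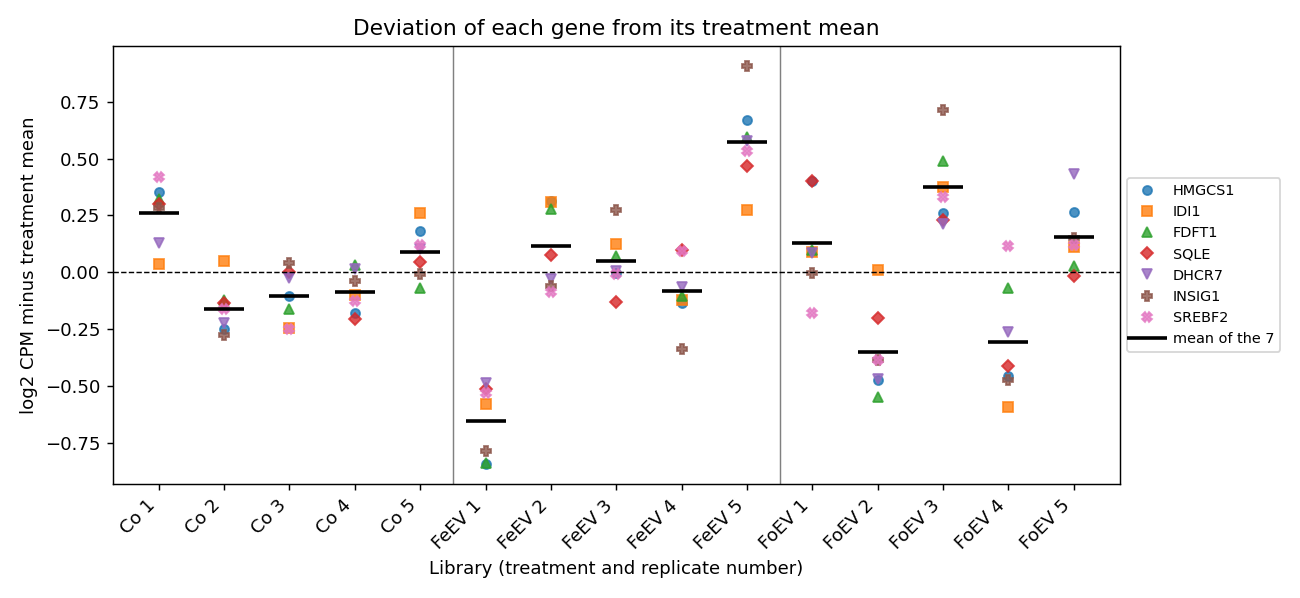
Deviation of each gene's log2 CPM from its treatment mean (vertical axis) in each of the 15 libraries (horizontal axis), with 1 symbol per gene and black lines for the mean of the 7 genes. All 7 symbols lie below 0 in FeEV replicate 1 and above 0 in FeEV replicate 5, FoEV replicate 3 and Co replicate 1.

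Over the 15 libraries, the deviations of each of the 21 pairs of the 7 genes were positively correlated. Pearson's r ran from 0.48 to 0.92, with a median of 0.776, and the median Spearman's rho was 0.721. The median r over all pairs of filtered genes was -0.00051. These values are descriptions, as the points of a pair share the library, its scaling and its embryos. The closest pair was HMGCS1 and SQLE, with r = 0.917 and rho = 0.886. HMGCS1 also followed DHCR7 (r = 0.893) and FDFT1 (r = 0.884) closely, and INSIG1 followed FDFT1 (r = 0.872) and DHCR7 (r = 0.867). The loosest pair was IDI1 and SREBF2, with r = 0.481 and rho = 0.504. Against the mean of the other 6 genes, r was 0.945 for HMGCS1, 0.914 for FDFT1, 0.904 for INSIG1, 0.890 for DHCR7, 0.851 for SQLE, 0.783 for SREBF2 and 0.742 for IDI1.

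The joint movement depended in part on 2 libraries. The median r over the 21 pairs was 0.671 without FeEV replicate 1, 0.704 without FeEV replicate 5 and 0.581 without both, when the pairs ran from 0.175 to 0.848. Within single treatments of 5 libraries, the median r was 0.721 for Co, 0.923 for FeEV and 0.700 for FoEV, and the lowest pair was at -0.084 in Co and 0.087 in FoEV. The joint deviation of the 7 genes had r = 0.379 with the logarithm of the library's total count and r = -0.427 with its TMM factor. It had r = 0.536 (rho = 0.571) with the mean of the 9 trophectoderm markers, r = 0.030 with that of the 3 inner cell mass markers and r = 0.161 with that of the 4 hypoblast markers. With the mean of the 3 cumulus cell markers above the filter it had r = 0.525 (rho = 0.571), from CYP11A1 (r = 0.533), HSD3B1 (r = 0.506) and STAR (r = 0.212). The cumulus matrix genes PTX3, HAS2 and TNFAIP6 were below the filter and are not part of this mean. The trophectoderm markers differed when taken singly, from r = -0.463 for TFAP2C to r = 0.681 for KRT18, with a median of 0.310. The trophectoderm mean deviated by 0.33 in FeEV replicate 5 and by -0.019 in FeEV replicate 1, and the cumulus mean by 0.59 and -0.21. The summed level of the trophectoderm markers ran from 6484 to 8741 CPM in Co, 7063 to 10550.0 CPM in FeEV and 8397 to 11320.0 CPM in FoEV, with none of the 9 at 0. Most of it came from the keratin genes KRT8 and KRT18, with means of 4266 and 2684 CPM in Co. In FoEV treatment vs. Co, 8 of the 9 markers had a log2 fold change above 0, beside 52.3% of all genes, and TFAP2A was at -0.49. The median of the 9 was 0.21. Of the inner cell mass markers, 1 of 3 was above 0 (median -0.030), and of the hypoblast markers, 1 of 4 (median -0.24). None of the markers of these 3 lists was called by edgeR at an adjusted p under 0.05 in that comparison. The parts of depth, scaling, trophectoderm content and cumulus marker genes in the joint movement were not tested.

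The spread of the 7 genes between libraries was wide for genes of their abundance. The biological coefficient of variation that edgeR estimated for each gene was above the trend for its abundance in 7 of 7 genes, and in 29.5% of all 10832 genes. HMGCS1 had a coefficient of 0.243 against a trend of 0.131, a ratio of 1.85. The ratio was 1.59 for FDFT1, 1.40 for SREBF2, 1.37 for INSIG1, 1.35 for DHCR7, 1.27 for SQLE and 1.18 for IDI1. These coefficients come from the same libraries as the correlations.

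The genes whose deviations were most like the mean of the 7 were sought among the other 10825 filtered genes. Among the closest, CYP51A1 (r = 0.921, rho = 0.896 over 15 libraries), which encodes the lanosterol demethylase, FDPS (r = 0.892, rho = 0.829), which encodes farnesyl diphosphate synthase, and ACAT2 (r = 0.884, rho = 0.875), which encodes a cytosolic thiolase, belong to the synthesis list. FADS1, the gene of a fatty acid desaturase, had r = 0.914. Outside these pathways, close genes were GM2A (r = 0.924), which encodes a lysosomal activator protein for ganglioside breakdown, GPT2 (r = 0.917), which encodes a mitochondrial alanine aminotransferase, METTL13 (r = 0.907), which encodes a methyltransferase, and KLC4 (r = 0.894), which encodes a kinesin light chain. Without FeEV replicates 1 and 5, r for these 8 genes lay between 0.772 (METTL13) and 0.903 (GM2A). These genes were picked for this value from all genes measured, so it is a description of them.

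The rest of the pathway was read from lists of synthesis enzymes, of sterol sensing and control, and of uptake, trafficking, storage and efflux. Among the synthesis enzymes other than the 7 genes, 10 of 14 had r above 0.5 with the mean of the 7, and the median of the list was 0.618, where 9.1% of all other genes were above 0.5. Without FeEV replicates 1 and 5, 8 of 14 were above 0.5, with a median of 0.583, beside 1087 of the 10825 other genes. Beside the enzymes already named, MSMO1, the sterol methyl oxidase, had r = 0.847, EBP, the sterol isomerase, had r = 0.843, LSS, the lanosterol synthase, had r = 0.686, and SC5D, a late desaturase, had r = 0.621. MVK and MVD, early enzymes of the mevalonate part, had r = 0.546 and 0.446, which were 0.342 and 0.133 without these libraries, and NSDHL, a sterol dehydrogenase, went from 0.585 to 0.341. LBR, the lamin B receptor with sterol reductase activity, had r = -0.176, and GGPS1, which makes geranylgeranyl diphosphate for protein prenylation, had r = -0.209.

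Genes of sterol control and of transport followed the 7 genes less uniformly. In the control list, 3 of 10 had r above 0.5, with a median of 0.121. They were RNF145 (r = 0.756), which encodes a ubiquitin ligase, SREBF1 (r = 0.693), which encodes the related SREBP1, and UBE2G2 (r = 0.502), which encodes a ubiquitin-conjugating enzyme. Without FeEV replicates 1 and 5, 2 of 10 remained above it, as UBE2G2 was at 0.345. SCAP, the escort of the SREBPs, had r = 0.136 and INSIG2, the relative of INSIG1, had r = 0.106. In the transport list, 2 of 13 were above 0.5, with a median of 0.0034, and they were NPC1 (r = 0.663), which exports cholesterol from lysosomes, and LRPAP1 (r = 0.636), which encodes a receptor chaperone. Without these libraries, NPC1 was at 0.459 and NPC2, its partner in the lysosome, at 0.598, so that LRPAP1 and NPC2 were the 2 above 0.5. APOE, which encodes an apolipoprotein, was at the other end with r = -0.506. Fatty acid synthesis, taken as the neighbouring pathway, had 4 of 7 genes above 0.5, which were FADS1, SCD (r = 0.863), FASN (r = 0.852) and FADS2 (r = 0.663), and without these libraries the count was also 4 of 7. The difference between lists was not tested.

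**Figure D4:**
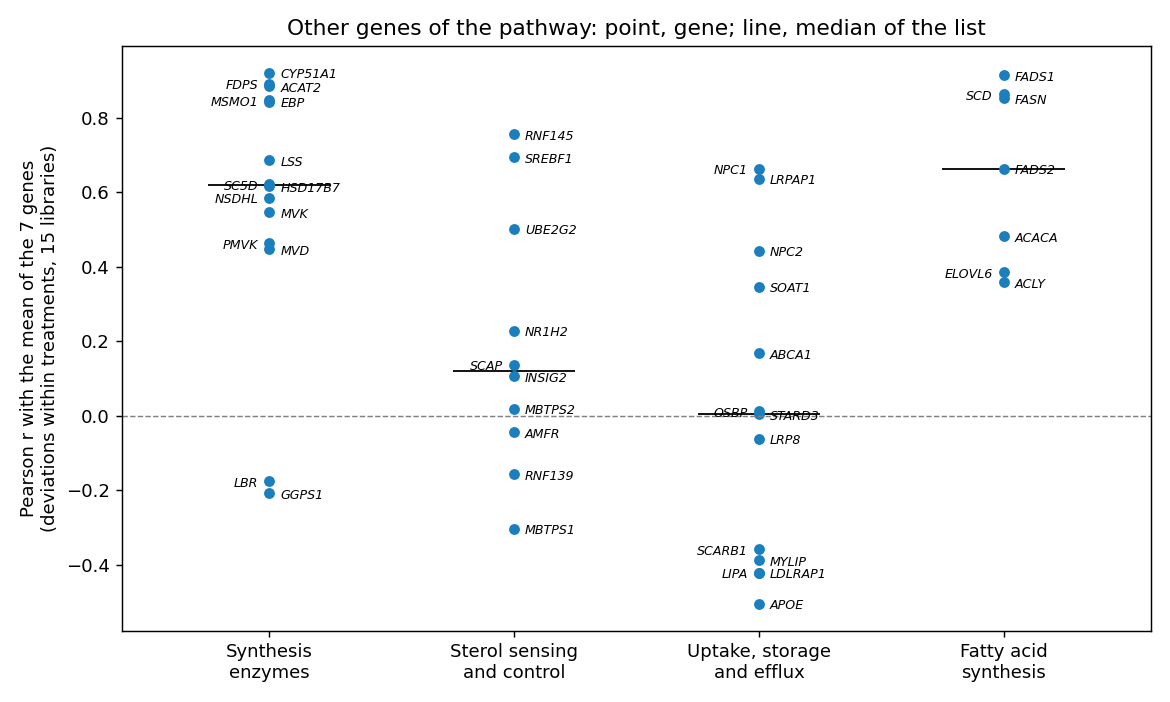
Pearson's r of each pathway gene with the mean of the 7 genes (vertical axis, deviations within treatments over 15 libraries), by list (horizontal axis), with 1 point per gene and a line at the median of each list. CYP51A1 is the highest of the synthesis enzymes drawn, at 0.921, and APOE is the lowest of the transport genes at -0.506.

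Between treatments, none of these 37 other pathway genes was called by edgeR at an adjusted p under 0.05 in any of the 3 comparisons, and DESeq2 called 0 of them. In FoEV treatment vs. Co, 5 of 37 had an unadjusted p under 0.05, of which 4 were higher, beside 8.18% of all genes, and 1 was lower, beside 6.88%. The 4 were FDPS at 0.45 ± 0.19, MVD at 0.50 ± 0.23, NR1H2, which encodes the sterol receptor LXR beta, at 0.32 ± 0.12, and UBE2G2 at 0.30 ± 0.14 (log2 fold change ± SE). FDPS had a mean of 26.4 ± 4.87 CPM in Co and 35.8 ± 7.42 CPM in FoEV (SD, n = 5). SOAT1, which encodes the enzyme that esterifies cholesterol for storage, was at -0.27 ± 0.092, with 403 to 506 CPM in Co and 322 to 434 CPM in FoEV, which overlapped (edgeR adjusted p = 0.179).

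In FeEV treatment vs. Co, 0 of the 37 had an unadjusted p under 0.05 by edgeR. In FoEV treatment vs. FeEV treatment, 5 of 37 did, with 3 higher, beside 4.83% of all genes, and 2 lower, beside 3.69%. The higher genes were APOE at 0.72 ± 0.21, LIPA, which encodes the lysosomal acid lipase, at 0.54 ± 0.25, and NR1H2 at 0.28 ± 0.12 (log2 fold change ± SE). APOE ranged from 9.28 to 18.1 CPM in FeEV and from 18.0 to 29.0 CPM in FoEV, and its edgeR adjusted p was 0.450. The lower genes were SOAT1 at -0.28 ± 0.092 and LBR at -0.34 ± 0.13. In FoEV treatment vs. Co, the other 12 synthesis enzymes ran from -0.23 for GGPS1 to 0.34 for NSDHL. Among the control and transport genes in that comparison, SCAP was at -0.11 ± 0.12, INSIG2 at -0.17 ± 0.16, SREBF1 at -0.03 ± 0.14, NPC1 at -0.05 ± 0.12 and ABCA1, the cholesterol efflux transporter, at -0.20 ± 0.14 (log2 fold change ± SE). TM7SF2, NR1H3, VLDLR and ABCG1 of these lists were below the filter, and STARD4 was not analysed here.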

How the data were processed

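Reads of 15 low-input total RNA libraries, 5 per treatment, were aligned by the authors to the cattle genome ARS-UCD1.2 and assigned to genes of the NCBI annotation. The paper names QuasR Qcount, and the submitters' processing notes list Trim Galore 0.4.3.1, HISAT2 2.1.0 and featureCounts 1.6.3. The deposited values are whole-number read counts without normalization, for 34773 genes and for the 10832 genes kept after filtering. The library kit selects strand, and whether counting used strand is not given in the sources used here.

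Treatments were read from the sample titles. The filtered counts were scaled by TMM and fitted with edgeR 4.0.16 (R 4.3.3; estimateDisp, glmQLFit with robust=TRUE, glmQLFTest) in 1 model of treatment over 15 libraries, and p-values were adjusted over all 10832 genes. Libraries of a treatment are separate embryo pools. Log2 CPM used a prior count of 2. Standard errors were taken from the log2 fold change and the F statistic, and 95% intervals from the matching t distribution. Correlations were computed in Python 3.11.15 with numpy 2.4.6 on deviations from treatment means. DESeq2 1.42.0, the paper's robust dispersion test, other filters, other scaling, blocks, thinning and leaving out each library were alternatives.

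Symbols came from a table of a later assembly, joined by gene identifier, which matched 10709 of the 10832 genes. Coordinates, transcript lengths and sequences were not used here. The 7 genes and the pathway lists were chosen with earlier results of these data known. The text names all 7 genes, 14 further pathway genes listed by symbol, in each comparison up to 5 more list genes with the smallest unadjusted p under 0.05, and genes among the 10 most like the mean of the 7. Some genes of the pathway lists and of those 10 are not reported here, and the list counts leave them out. RNF145, EBP, LRPAP1, NPC2, GGPS1, SCD, FASN, FADS2, the cumulus and trophectoderm marker genes and the genes at the ends of a list were named after their values were seen. Totals per library ran from 2136713 to 4058887 counts, and 3 counts, the floor used here, are under the lowest count of any of the 7 genes.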

Additional observations from a re-analysis of the deposited data

How the results depend on the processing

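No setting called any of the 7 genes at an adjusted p under 0.05. The share of all genes called was set beside the main edgeR fit only. That share was 0.00923% in FoEV treatment vs. Co and 0.0% in the other comparisons. Counts under DESeq2 and the other settings, adjusted or not, have no such share beside them. Their 21 log2 fold changes were recomputed under 9 settings other than leaving out a library, which gave 189 values, of which 182 kept their direction and 7 turned it, with a lowest adjusted p of 0.412. Leaving out each library in turn gave 315 values, of which 30 turned direction, with a lowest adjusted p of 0.295. No list gene was called either. Depth limited INSIG1 most, with 22 reads in its scarcest library. The count of genes at an unadjusted p under 0.05 in FeEV treatment vs. Co moved from 0 to 1 with the paper's robust dispersion test (IDI1), to 2 over all genes with at least 1 count (IDI1 and DHCR7), to 1 with the replicate block (DHCR7, log2 fold change 0.29), and to 0 to 3 without single libraries, the 3 being without FeEV replicate 1. In FoEV treatment vs. Co it ran from 0 to 1 without single libraries, the 1 being without FoEV replicate 4. The median r of the 21 pairs ran from 0.671 (without FeEV replicate 1) to 0.825 (without FoEV replicate 4). The median log2 fold change of the 7 was also read over the fits that left out 1 library. In FoEV treatment vs. Co it ran from -0.0101 (without FoEV replicate 3) to 0.22. In FeEV treatment vs. Co it ran from 0.072 (without FeEV replicate 5) to 0.43 (without FeEV replicate 1). In FoEV treatment vs. FeEV treatment it ran from -0.19 to 0.10, and it is -0.08 over all libraries. With the replicate block by library number it was -0.015 in FoEV treatment vs. Co and 0.12 in FeEV treatment vs. Co. Leaving out both FeEV replicates 1 and 5, also for the pathway lists, and correlating within single treatments, were chosen after seeing the data.

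Same-numbered libraries did not deviate together in every pair (correlations from -0.291 to 0.441). By replicate number, their mean correlation was 0.034 between FoEV and Co, 0.138 between FeEV and Co and 0.186 between FoEV and FeEV. The means of the other pairs were -0.0084, -0.034 and -0.046. Whether pools shared a run cannot be read from these values. Neither the replicate number nor the library number was taken to pair the pools, and the block changed no adjusted call. With the replicate block by library number, the log2 fold change in FoEV treatment vs. Co was -0.27 for HMGCS1, -0.12 for SQLE and -0.044 for FDFT1, and in FeEV treatment vs. Co -0.064 for SQLE. With the robust dispersion test, SREBF2 was at 0.042 in FoEV treatment vs. Co. With thinned counts, INSIG1 was at -0.022 and DHCR7 at 0.0019 in FoEV treatment vs. FeEV treatment. The cause was not tested.

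Without single libraries, the log2 fold changes that turned direction ran as follows. In FoEV treatment vs. Co, HMGCS1 ran from -0.068 to 0.14, SQLE from -0.074 to 0.13, FDFT1 from -0.0101 to 0.26 and SREBF2 from -0.096 to 0.12. In FeEV treatment vs. Co, SQLE ran from -0.069 to 0.19, INSIG1 from -0.048 to 0.45 and SREBF2 from -0.11 to 0.17. In FoEV treatment vs. FeEV treatment, SQLE ran from -0.15 to 0.11, INSIG1 from -0.20 to 0.35, IDI1 from -0.22 to 0.026, FDFT1 from -0.29 to 0.048, DHCR7 from -0.20 to 0.10 and SREBF2 from -0.17 to 0.11.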
